A study of Mus musculus with 50 samples.

Results

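Lynx1, its relatives Ly6h and Ly6e, and 7 nicotinic acetylcholine receptor subunits were examined in mouse hippocampus on the Agilent platform. The members were chosen by symbol, as every probe that is not a control and that is named Lynx1, Ly6h, Ly6e, Chrna3, Chrna4, Chrna5, Chrna7, Chrnb1, Chrnb2 or Chrnb4. All 10 genes, of 16821 genes named on these arrays, had a probe, and 14 of the 41174 probes belonged to them. Ly6h, Chrna3, Chrna4 and Chrna7 had a pair of probes each and the other genes had a single one. The 14 probes were named by their RefSeq accession.

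The study measured hippocampal RNA of male C57/BL6j wild-type mice (WT) and of transgenic mice (TG) of that background that overexpress DCLK-short, a short product of Dclk1, which encodes doublecortin-like kinase. The promoter of the transgene and the age of the mice are not given in the sources used here. On Agilent, 5 WT and 5 TG mice were compared on 10 arrays with a Cy3 and a Cy5 channel, each array with 1 WT and 1 TG mouse, and each mouse on 2 arrays. As labelled, WT carried Cy3 on arrays 1 to 5 and TG carried Cy3 on arrays 6 to 10. On ABI, a platform with 1 mouse per array, 5 WT and 5 TG mice were measured. The other 3 platforms were not analysed here.

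Nicotinic receptors are cation channels that open when acetylcholine binds, and they are built from 5 subunits around a pore. In the forebrain the common forms combine Chrna4 with Chrnb2, to which Chrna5 can be added, or consist of Chrna7 alone, whereas Chrna3 and Chrnb4 are best known from the medial habenula and from autonomic ganglia, and Chrnb1 from muscle. Lynx1 is a small membrane-anchored protein of the Ly6/uPAR family that binds nicotinic receptors and dampens their response to acetylcholine. Ly6h, a neuronal relative, is known to hold back Chrna7, and Ly6e is a broadly expressed relative known from interferon responses and virus entry.

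The direction of every Agilent ratio given here is that of the array labels, and it is in doubt. The label check was the Tmem254a probe, which gave -0.99 ± 0.0491 (SE, n = 10 arrays) as labelled for the log2 ratio of TG over WT. On ABI the same gene was higher in TG, by 1.81 ± 0.174 (SE, n = 5 mice per group) on the log2 scale. For Lynx1, the labelled Agilent direction is the opposite of the one the study gives on Agilent. If arrays 1 to 5 and arrays 6 to 10 carried each other's labels, every Agilent sign would turn. The sizes of the mean ratios over the arrays and their SEs would stay, whereas the levels, overlaps and errors per mouse would change. The correlation between both channels of a mouse did not settle the order, with a median of 0.174 over the mice as labelled and 0.223 after this exchange of labels. The 4 probes of Dclk1 had log2 ratios between -0.085 and -0.056, with no FDR (the false discovery rate, a p value adjusted over all probes) of 0.1 or less. Whether these probes lie in the transgene's sequence was not examined.

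Arrays 1 and 9, which share the mouse labelled TG4, stood apart from the others. The SD of the log2 ratios over all probes was 0.321 and 0.384 on these arrays and between 0.138 and 0.226 on the other 8. Both channels of this mouse correlated with 0.820, and after the exchange the same channels would belong to the mouse labelled WT5. Results that rest on these arrays are given with and without them. Per array, between 80.1% and 88.4% of the probes carried the scanner flag for a signal well above background in Cy3 and Cy5.

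Of the 14 probes, 11 were present on all 10 arrays. A probe was called present where Cy3 and Cy5 exceeded the 95th percentile of 314 negative controls. The flag for signals well above background also held for 11 of them in both channels on all arrays. The 3 probes that were not present on all arrays were both probes of Chrna3 and the probe of Chrnb4, the pair of subunits known from the medial habenula. Each signal is set against the negative controls of its own array and channel, since probes differ in brightness for reasons of design and their levels cannot be compared with each other.

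The modulators of the Ly6 family stood far above the controls. The Lynx1 signal was between 24.3 and 147.9 times the 95th percentile of the negative controls, with a median of 42.5 over the 20 channels. For the Ly6h probes the medians were 29.1 and 38.5 times, and for Ly6e it was 20.2 times. No spot of the 14 probes was saturated or flagged as not uniform on any array.

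The subunits were measured much closer to the controls. Chrnb2, the partner of Chrna4, had a median of 3.52 times the control percentile and a range from 2.20 to 9.34. The medians of the Chrna4 probes were 1.80 and 1.37 times, that of Chrna5 was 1.58 times and that of Chrnb1 was 2.07 times. The Chrna7 probes had medians of 1.304 and 2.51 times. The Chrna3 probe A_51_P203200 lay below the control percentile in all 20 channels, between 0.871 and 0.995 times. The other Chrna3 probe, A_52_P577705, was above it in both channels of 7 arrays, and so was the Chrnb4 probe, with medians of 1.03 and 1.06 times. No mean ratio or fold of TG over WT is given for these 3 probes.

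**Figure D1:**
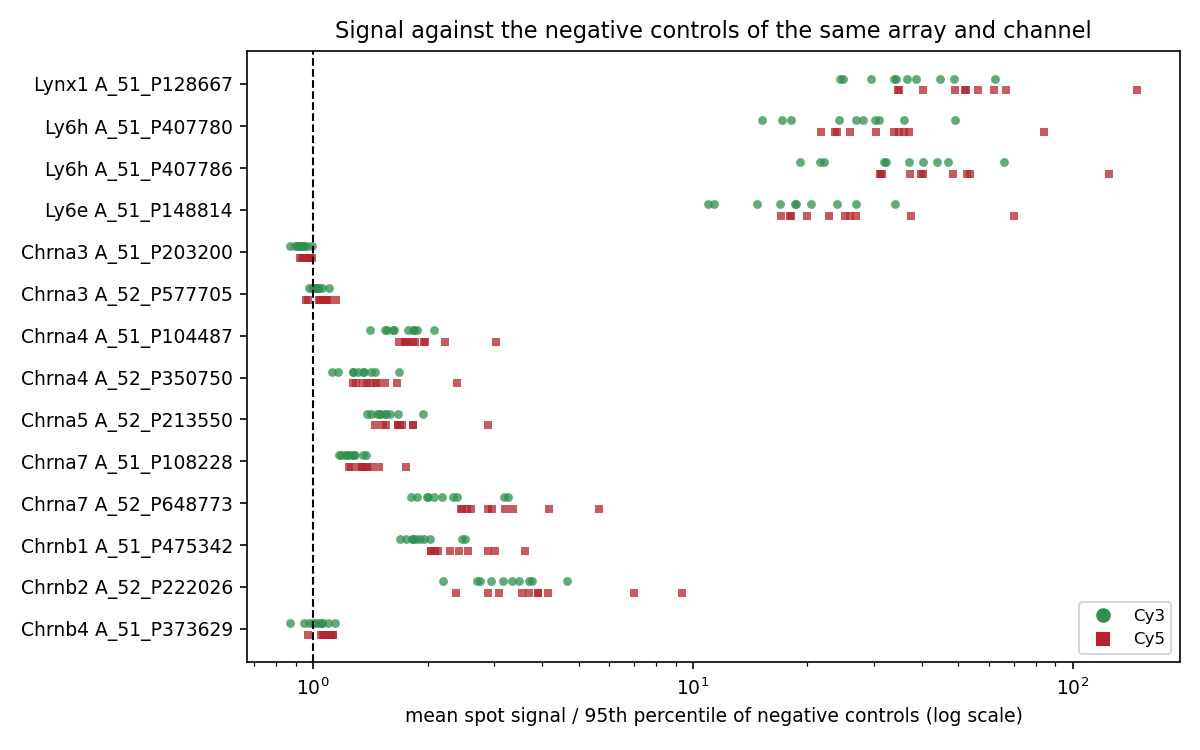
Mean spot signal divided by the 95th percentile of the negative controls of the same array and channel, on a log scale, for 14 probes in the Cy3 (circles) and Cy5 (squares) channels of 10 Agilent arrays. Lynx1, Ly6h and Ly6e lie above 10 times in every channel, whereas the Chrna3 and Chrnb4 probes lie around the dashed line at 1.

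The log2 ratio of TG over WT was fitted per probe over the 10 arrays with limma, and an FDR of 0.1 or less was called. The genes were proposed with these ratios known, so the calls describe the members and are no independent evidence. Of the 14 probes 3 were called, and 7.42% of all 41174 probes were called. All 3 were higher in TG as labelled, where 3.66% of all probes were called higher and 3.76% lower. With median centring in place of loess, 92.3% of the calls over all probes were higher in TG, and 49.4% with loess. The same 3 probes, of Lynx1, Ly6e and Chrna4, had a positive ratio on all 10 arrays, and 2.11% of all probes had the same sign on all arrays. With the probes of a gene averaged, 2 of the 10 genes were called, Lynx1 and Ly6e, and 8.22% of all genes and unnamed probes. Of the 11 present probes 3 were called, and 8.84% of all present probes. The median log2 ratio was 0.0434 over the 14 probes, which include 3 not above the controls, and 0.00229 over all probes.

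The calls treat the 10 arrays as separate observations although each mouse is on 2 of them. With 1 value per mouse and 5 WT against 5 TG mice, 0 of the 14 probes were called in limma's test, and 24 probes (0.0583%) of all. At an unadjusted p under 0.05 there were 3 of the 14 in that fit, and 3 in the fit over arrays. The share of all Agilent probes under this unadjusted limit was not counted. Counts at that limit, here and for the lists below, are therefore descriptions that cannot be set against it. In bulk tissue, fewer cells of a type and less RNA per cell cannot be told apart.

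Lynx1 had a higher signal in TG as labelled, with no overlap between the mice of both groups. Its probe, A_51_P128667, lies on chromosome 15 from 74779667 to 74779726. The files do not name the genome build of the positions. The reference table lists SLURP-2 among the synonyms of the gene, and whether the probe also detects a transcript of that name was not tested.

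Intensities per mouse were normalized by loess and by a quantile step between arrays, and averaged over the Cy3 and the Cy5 channel of the mouse. The normalized log2 intensity of Lynx1 was 11.135 in WT1, 11.009 in WT3, 11.142 in WT4, 11.111 in WT5 and 10.961 in WT6. In the TG mice it was 11.458 in TG1, 11.390 in TG2, 11.471 in TG3, 11.515 in TG4 and 11.213 in TG5. The lowest TG mouse, TG5, was above the highest WT mouse, WT4. The means were 11.07 ± 0.0818 (SD, n = 5) in WT and 11.41 ± 0.119 (SD, n = 5) in TG. Over all probes, 2.08% had no overlap between the mice of both groups.

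On single arrays the log2 ratio of Lynx1 was between 0.073 and 0.60, with a median of 0.31. The smallest value was on array 7 and the largest on array 9, which carried TG4. The mean was 0.34 ± 0.0527 (SE, n = 10 arrays), a 1.26-fold difference, with a 95% interval from 0.222 to 0.453. Its FDR in limma's test was 0.0139, and it ranked 121 of the 41174 probes by p. Without the arrays of TG4 the log2 ratio was 0.30 (FDR 0.0332). With 1 value per mouse the log2 ratio stayed at 0.34 with an FDR of 0.146, which is above the limit. In both dye orientations the mean was above 0, with 0.40 ± 0.145 (SD, n = 5 arrays) where WT carried Cy3 and 0.27 ± 0.20 (SD, n = 5 arrays) where TG carried Cy3.

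Ly6e differed by a similar amount. Its probe, A_51_P148814, lies on chromosome 15 from 74991743 to 74991802. The normalized log2 intensity was 10.089 in WT1, 9.898 in WT3, 9.859 in WT4, 10.027 in WT5 and 10.106 in WT6. It was 10.494 in TG1, 10.401 in TG2, 10.319 in TG3, 10.659 in TG4 and 10.202 in TG5. The groups did not overlap, with TG5 as the lowest TG mouse, as for Lynx1, and WT6 as the highest WT mouse. On average the log2 ratio reached 0.42 ± 0.0589 (SE, n = 10 arrays), a 1.34-fold difference, with a 95% interval from 0.290 to 0.548, an FDR of 0.00875 in limma's test and rank 72. The ratios ran from 0.017 on array 10 to 0.72 on array 9. Without TG4 the log2 ratio was 0.39 (FDR 0.0258), and with 1 value per mouse the FDR was 0.178.

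**Figure D2:**
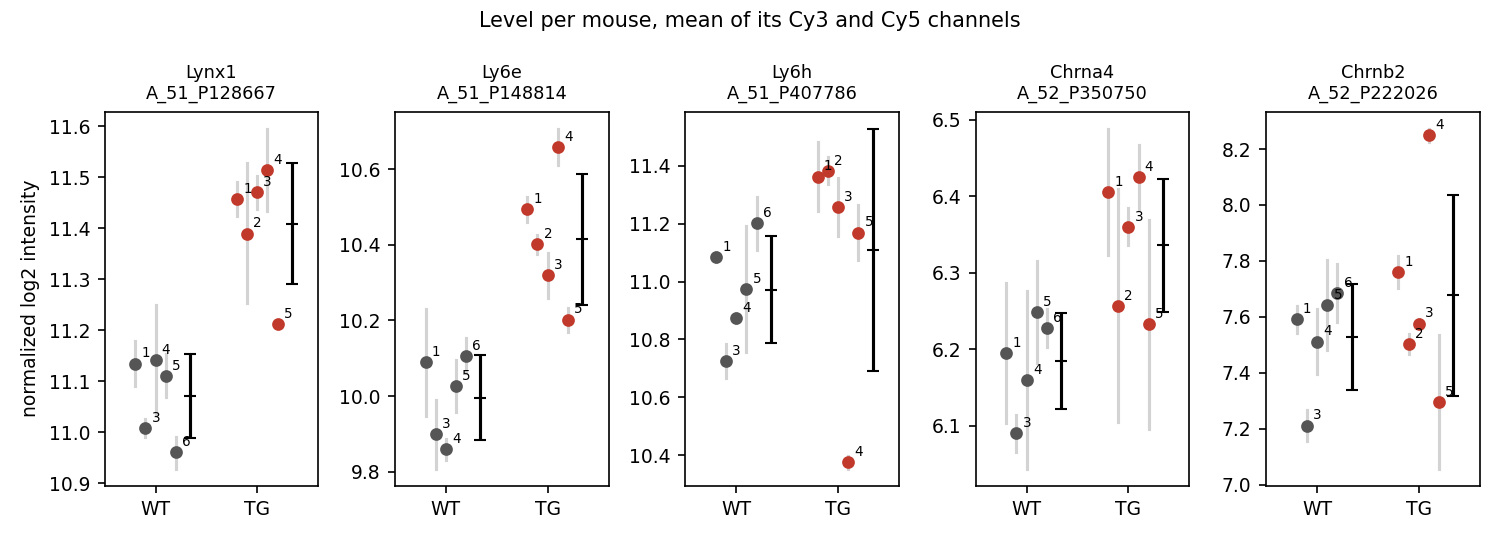
Normalized log2 intensity per mouse for 5 probes, with 1 point per mouse as the mean of its Cy3 and Cy5 channels (ends of the grey lines), the mouse number beside it, and the mean ± SD over 5 mice in black. Each panel has its own axis. The WT and TG mice do not overlap for Lynx1 and Ly6e, and TG4 lies below all other mice for Ly6h and above all of them for Chrnb2.

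Ly6h was lower in TG4 than in any other mouse and its mean ratio was not called. The probes A_51_P407780 and A_51_P407786 lie next to each other on chromosome 15, from 75615265 to 75615565 and from 75615189 to 75615248. With A_51_P407786 the normalized log2 intensity was 10.375 in TG4 and between 11.169 and 11.383 in the other 4 TG mice. The WT mice were between 10.725 and 11.201. With A_51_P407780, TG4 was at 9.866 and the highest TG mouse at 10.918, and the WT mice were between 10.423 and 10.671.

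The log2 ratios of the Ly6h probes were 0.089 ± 0.133 (SE, n = 10 arrays; FDR 0.819) and 0.14 ± 0.128 (FDR 0.655), and each was positive on 6 of 10 arrays. For A_51_P407780 they reached from -0.86 on array 1 to 0.63 on array 8, the widest SD of the 14 probes (0.473). Without the arrays of TG4 the means were 0.28 (FDR 0.113) and 0.31 (FDR 0.0908), so that A_51_P407786 was then called in limma's test. The ratios of both probes rose and fell together over the 10 arrays, with a Pearson correlation of 0.957 (0.845 without the arrays of TG4), which describes 2 probes of 1 gene on the same arrays.

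Of the subunits, a Chrna4 probe was called and the other Chrna4 probe was not. The called probe, A_52_P350750, lies on chromosome 2 from 180739563 to 180739622, and A_51_P104487 from 180741682 to 180741741. The log2 ratio was 0.15 ± 0.0348 (SE, n = 10 arrays; FDR 0.0434) for the former, a 1.11-fold difference, and 0.019 ± 0.0350 (FDR 0.861) for the latter. With A_52_P350750 the normalized log2 intensity was 6.195 in WT1, 6.090 in WT3, 6.160 in WT4, 6.249 in WT5 and 6.228 in WT6. It was 6.406 in TG1, 6.257 in TG2, 6.360 in TG3, 6.425 in TG4 and 6.232 in TG5. TG5 lay below WT5, so the groups overlapped.

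The difference of A_52_P350750 depended on the processing. Its FDR rose above 0.1 when any of 7 mice (TG1, TG2, TG5, WT1, WT3, WT4 or WT6) was left out, up to 0.139 without WT4. It was 0.568 with median centring and 0.408 with 1 value per mouse, and with both Chrna4 probes averaged the log2 ratio was 0.085 (FDR 0.119). With the log ratio of the scanner software, which is corrected for background, it was 0.46 and called (FDR 0.0444). Without TG4 the log2 ratio was 0.11 (FDR 0.0976). The signal of this probe was between 1.12 and 2.40 times the control percentile.

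Chrnb2, the subunit that pairs with Chrna4, was highest in TG4. Its probe, A_52_P222026, had a normalized log2 intensity of 8.249 in TG4 and between 7.297 and 7.760 in the other 4 TG mice. The WT mice were between 7.212 and 7.685. Besides TG4, only TG1 lay above the highest WT mouse. The log2 ratio was 0.96 on array 9 and 0.63 on array 1, and between -0.21 and 0.22 on the other 8 arrays. The mean was 0.15 ± 0.105 (SE, n = 10 arrays; FDR 0.520), and without TG4 it was -0.013 (FDR 0.962). Over the 10 arrays the ratios of Chrnb2 and of the Chrna4 probe A_52_P350750 correlated with 0.865, and both were highest on array 9. Without the arrays of TG4 the correlation was 0.519 over 8 arrays.

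**Figure D3:**
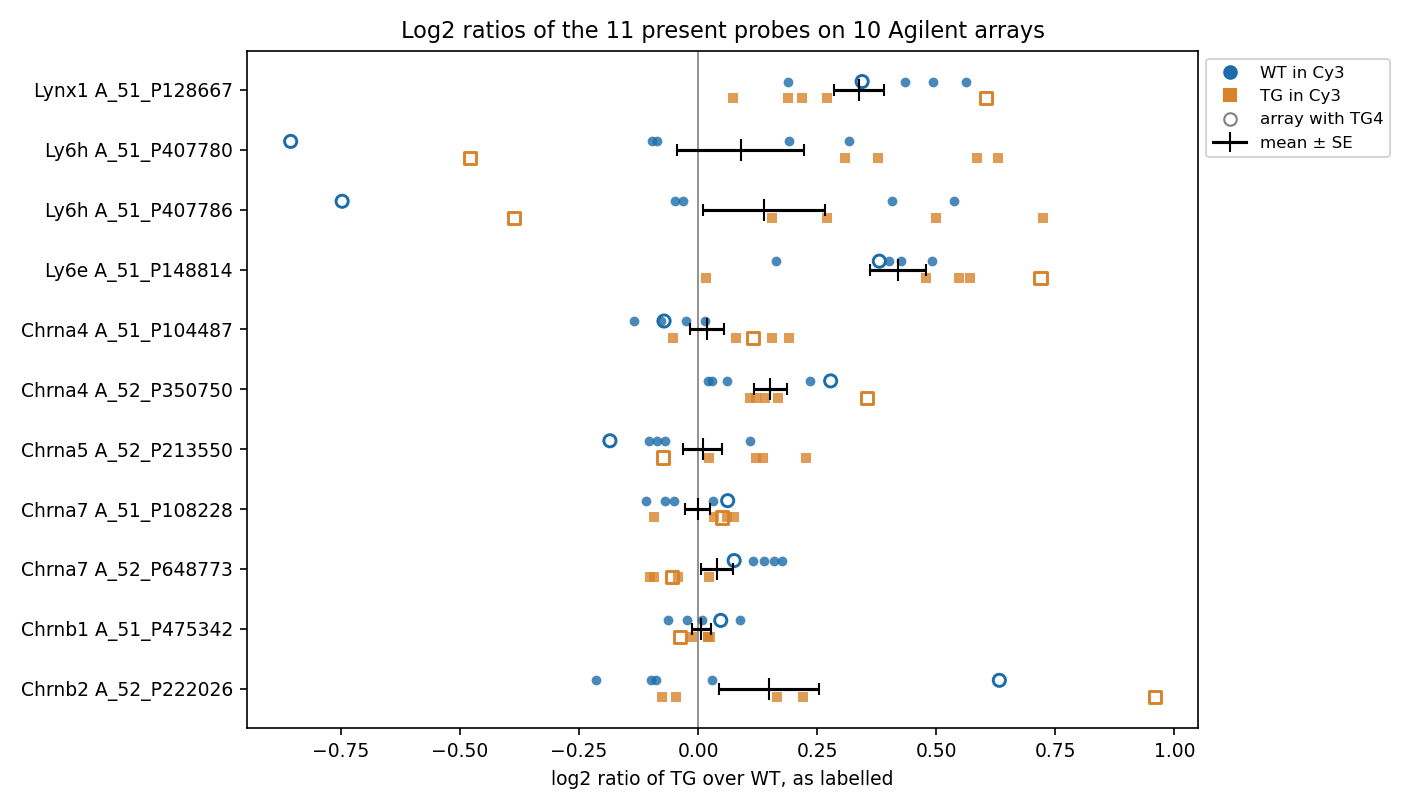
Log2 ratio of TG over WT, as labelled, on 10 Agilent arrays for the 11 probes present on all arrays, with circles for arrays with WT in Cy3, squares for arrays with TG in Cy3, open symbols for arrays 1 and 9 with the mouse TG4, and the mean ± SE in black. Lynx1, Ly6e and the Chrna4 probe A_52_P350750 lie above 0 on all 10 arrays, and the open symbols lie apart for Ly6h and Chrnb2.

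The remaining subunits that were present had ratios near 0, at signals close to the controls and without background correction. Chrna7, which forms channels on its own, had log2 ratios of -0.00098 ± 0.0260 (SE, n = 10 arrays) for A_51_P108228 and 0.040 ± 0.0343 for A_52_P648773, with 95% intervals from -0.058 to 0.056 and from -0.0355 to 0.115. Chrna5, an accessory subunit, had 0.0097 ± 0.0408 with an interval from -0.0796 to 0.099. Chrnb1, the beta subunit of the muscle receptor, had 0.0071 ± 0.0207 with an interval from -0.0383 to 0.0524. The FDR of these 4 probes was between 0.624 and 0.993. With the log ratio of the scanner software, which is corrected for background, their SEs were larger, between 0.0318 and 0.0778, and none was called. Both groups of mice overlapped for each of them.

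The Chrna3 and Chrnb4 probes were not above the controls in all channels and were not called, with an FDR between 0.345 and 0.944. The mouse means of A_51_P203200 did not overlap between the groups, from 5.610 to 5.680 in WT and from 5.686 to 5.765 in TG, at signals below the control percentile.

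The dye effect, the difference of Cy5 over Cy3 that remains after loess, did not enter the choice of the genes. With the dye as a term in limma, it was called for 4 of the 14 probes, and 22.6% of all probes were called. The Chrna7 probe A_52_P648773 had a dye effect of 0.094 ± 0.0183 (SE; FDR 0.00986) on the log2 scale. Its mean log2 ratio of TG over WT was 0.13 ± 0.0394 (SD, n = 5 arrays) where WT carried Cy3 and -0.054 ± 0.0494 (SD, n = 5 arrays) where TG carried Cy3. The other 3 were both probes of Chrna3 and the Chrna4 probe A_51_P104487, with dye effects between -0.078 and -0.053. Lynx1 (FDR 0.421), Ly6e (FDR 0.648) and the Chrna4 probe A_52_P350750 (FDR 0.651) had no called dye effect.

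On chromosome 15 the probes of Lynx1, Ly6e and Ly6h lie in 1 cluster of the Ly6 family. Between the Lynx1 probe and the farther Ly6h probe, a stretch of 835.9 kb, the array has 21 probes, which include those of 11 named genes. Lynx1, Ly6e and Ly6a were called, 3 of the 21 probes (14.3%), all of them higher in TG as labelled, where 7.42% of all probes were called and 3.66% called higher. Lynx1 and Ly6e were chosen with their ratios known, so this share is a description. Ly6a, known as the stem cell antigen Sca-1, stood at 0.31 ± 0.0787 (SE, n = 10 arrays; FDR 0.0567) on the log2 scale and was positive on 8 arrays. Its FDR was above 0.1 when any of 6 mice (TG2, TG3, TG5, WT3, WT4 or WT5) was left out, up to 0.243 without WT3, and was 0.419 with 1 value per mouse.

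The probes next to the called ones in this cluster were not called. Ly6d, the nearest to Lynx1, had -0.035 ± 0.030, and Ly6i, between Ly6e and Ly6a, had 0.091 ± 0.0436 (FDR 0.291). Ly6c1 had a large spread with 0.27 ± 0.119 (FDR 0.243). On chromosome 9, Chrna5, Chrna3 and Chrnb4 lie within 29.57 kb, and 0 of the 4 probes there were called in limma's test, with 0 at an unadjusted p under 0.05.

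**Figure D4:**
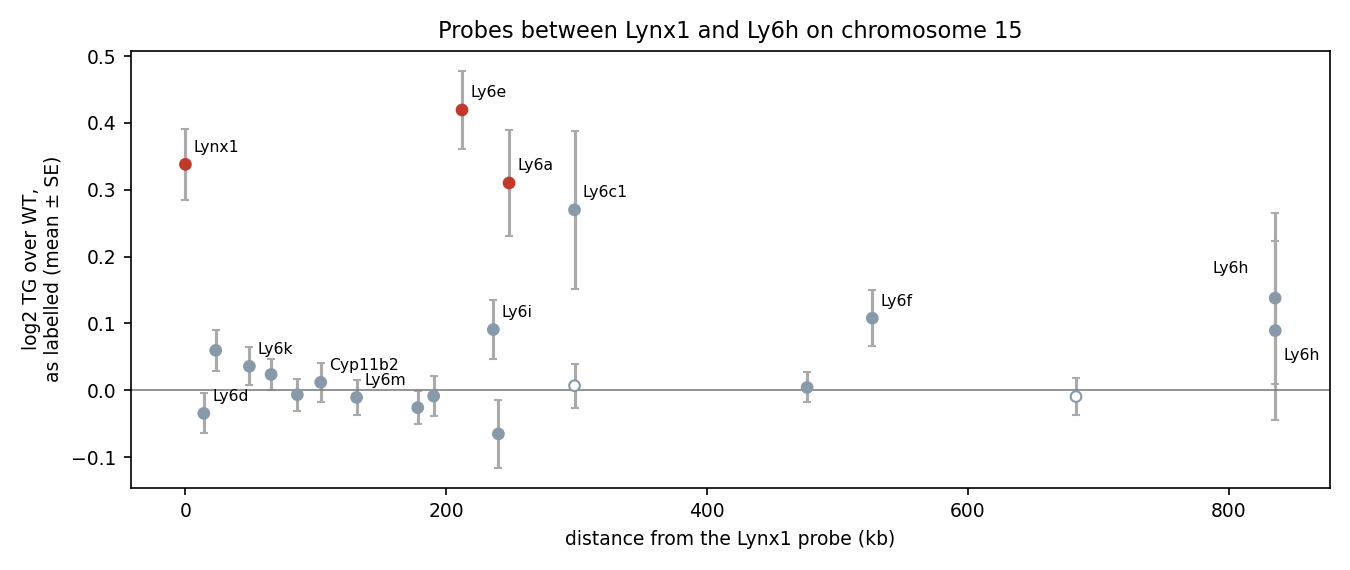
Mean log2 ratio of TG over WT, as labelled, with its SE over 10 arrays, for 21 Agilent probes by their distance from the Lynx1 probe in kb on chromosome 15, with red for an FDR of 0.1 or less and open points for probes not present on all arrays. Lynx1, Ly6e and Ly6a are red, and the other probes between them lie from -0.065 to 0.091.

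The other genes of the family and of cholinergic signalling were counted by list. Of the 32 probes of other Ly6/uPAR genes, 2 were called, both higher in TG as labelled (6.25%, where 7.42% of all probes were called). Ly6a was the one and Ly6g6e, a family member that lies outside this cluster, the other, with 0.32 ± 0.0336 (SE, n = 10 arrays; FDR 0.00278) and a positive ratio on all 10 arrays. With the log ratio of the scanner software its log2 ratio was 0.72 (FDR 0.0015). With 1 value per mouse Ly6g6e was called in limma's test (FDR 0.0553), and after the exchange of arrays it was not (FDR 0.231). The median log2 ratio of this list was 0.00048.

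Among the genes for the synthesis, transport and breakdown of acetylcholine, 1 of 9 probes was called (11.1%, where 7.42% of all probes were called). It was that of Ache, the enzyme that splits acetylcholine at the synapse, with 0.32 ± 0.0618 (SE, n = 10 arrays; FDR 0.0267), positive on 9 arrays, with an FDR of 0.285 with 1 value per mouse. Chat, which makes acetylcholine, had 0.085 ± 0.0542 and 0.019 ± 0.0393 with its 2 probes, and Slc18a3, its vesicular transporter, had 0.0060 ± 0.0292. In limma's test 0 of 11 probes of the other nicotinic subunits, 0 of 18 of receptor assembly and clustering and 0 of 6 of the muscarinic receptors were called, with 0, 4 and 0 of them at an unadjusted p under 0.05. The ratios of the other subunits, Chrna2 and Chrna6 among them, were between -0.043 and 0.046. The assembly list had the widest range, from -0.40 for a probe of the chaperone Ubqln1 to 0.17 for Lrp4, a part of the agrin receptor. The Ubqln1 probes had -0.40 ± 0.152, -0.40 ± 0.142 and -0.064 ± 0.0569, and none was called. Their lowest ratios on a single array were -1.45, -1.39 and -0.33.

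**Figure D5:**
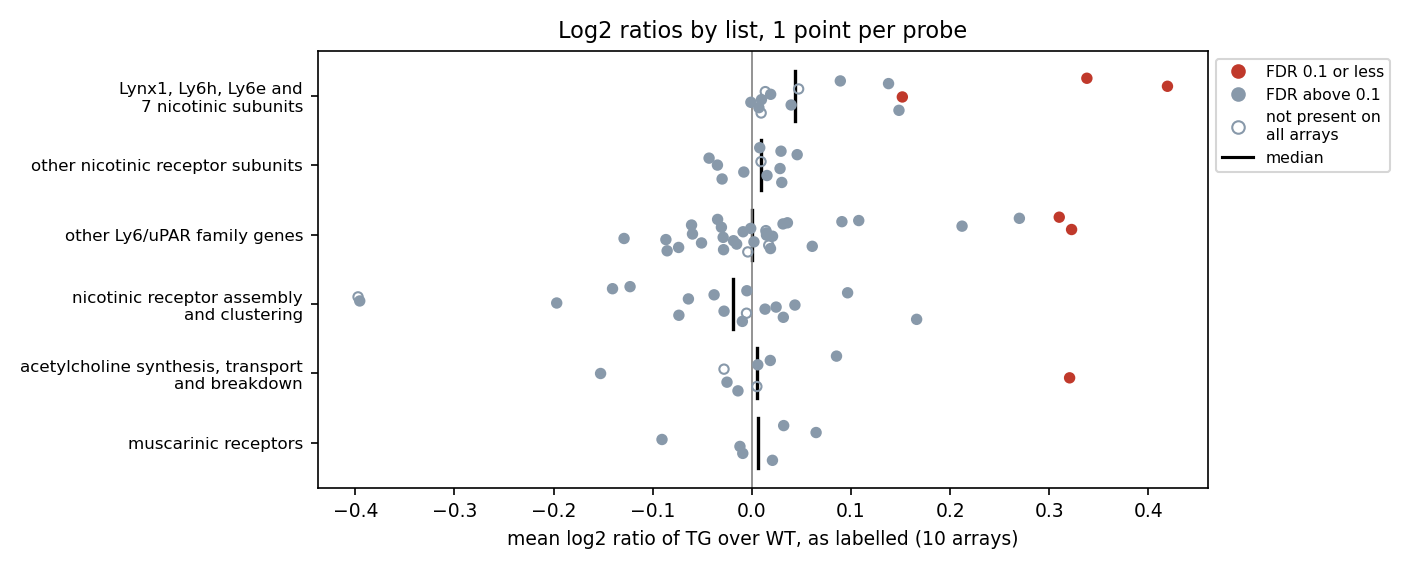
Mean log2 ratio of TG over WT, as labelled, over 10 Agilent arrays for the 14 probes and for 5 lists of other genes, with 1 point per probe, open points for probes not present on all arrays, red for an FDR of 0.1 or less and a black line at the median of each list. The medians of the 5 lists lie between -0.019 and 0.0092, and that of the 14 probes at 0.043.

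The tissue and other cell types were checked with 9 marker lists. Of the markers of pyramidal and granule neurons, 9 of 10 probes were present, and 1 was called, C1ql2 of the dentate gyrus, with -0.30 ± 0.0501 (SE, n = 10 arrays). For the medial habenula 3 of 4 probes were present, and for cholinergic neurons 4 of 7. In limma's test 0 probes of these lists were called, with 1 and 0 at an unadjusted p under 0.05. The count was also 0 for GABAergic interneurons (8 probes), in which Lynx1 is known to be expressed, choroid plexus (7 probes) and thalamus (8 probes), with 3, 1 and 1 at an unadjusted p under 0.05.

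Some glial markers were called, in both directions, where 7.42% of all probes were called. Of 7 astrocyte probes 2 (28.6%) were called, both of the water channel Aqp4, with 0.42 ± 0.0986 and 0.31 ± 0.0778. The other astrocyte probes were not called. Gfap was at -0.15 ± 0.0522, Gja1 at -0.079 ± 0.0507 and Aldoc at -0.056 ± 0.0566. Slc1a3 was at 0.16 ± 0.129 and the remaining Aqp4 probe at 0.19 ± 0.110. Of 9 oligodendrocyte probes 2 (22.2%) were called, with a probe of the myelin gene Mbp at -0.22 ± 0.0559. The other Mbp probes, at -0.14 ± 0.0655 and -1.15 ± 0.451, and Cnp at 0.24 ± 0.0831 were not called. Of 9 microglia probes 3 (33.3%) were called, 2 higher and 1 lower in TG as labelled, with P2ry12 at -0.29 ± 0.0616 and Tmem119 at 0.13 ± 0.0347. The ratios of this list ran from -0.29 to 0.32, with a median of 0.029, and the largest was that of the called marker not named here. The summed intensity of the astrocyte list was from 14110 to 15960 in the WT mice and from 13200 to 16860 in the TG mice. That of the oligodendrocyte list was from 30020 to 39050 and from 24960 to 31450, that of the microglia list from 2513 to 2901 and from 2568 to 2975, and that of the interneuron list from 9647 to 12010 and from 9610 to 13660. The groups overlapped for all 9 lists, and the part of these cells in the ratios of Lynx1 and Ly6e was not tested.

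The 5 named genes whose ratios were most like those of Lynx1 over the 10 arrays, among present probes, were Anapc7 (Pearson correlation 0.969), B4gat1 (0.942), Ctnna2 (0.933), Trav3-3 (0.920) and Mpg (0.916). They were taken as the highest of all named probes over 10 arrays that share mice, and without the arrays of TG4 the correlations were between 0.899 and 0.973. Of the other members, Chrna4 (A_52_P350750) came closest to Lynx1 with 0.443, whereas the Ly6h probes had -0.540 and -0.427 and Ly6e had 0.196. Without the arrays of TG4 these were 0.139, -0.619, -0.352 and -0.105.

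On ABI, Chrnb1 was the only member that could be named, since 311 of the 33012 identifiers were matched to a gene. The ABI signals were quantile-normalized on the log2 scale. The study reports different batches of ABI arrays, and the batch was not a term in the fit here. Chrnb1 was at 10.200, 10.944, 9.340, 9.962 and 9.559 in the 5 WT mice and at 9.593, 12.402, 10.511, 10.752 and 9.794 in the 5 TG mice, so the groups overlapped. The means were 10.001 ± 0.625 (SD, n = 5) and 10.61 ± 1.11 (SD, n = 5). The difference of TG minus WT was 0.61 ± 0.512 (SE), with a 95% interval from -0.526 to 1.74 and an FDR of 1.00 in limma's test, rank 8387. TG2 had the highest value, and without this mouse the difference was 0.16. Of all ABI probes 1 (0.00303%) was called, that of Tmem254a, and 1686 had an unadjusted p under 0.05.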

How the data were processed

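Hippocampal RNA of WT and TG mice was analysed on the Agilent (10 arrays) and ABI (10 arrays) platforms. Per the file headers, the authors deposited mean and median pixel intensities of each Agilent spot in Cy3 and Cy5, neither normalized nor background-corrected, together with the local background and quality flags. The deposited log10 ratio of Cy5 over Cy3 was corrected and dye-normalized by the scanner software and served as an alternative alone. The ABI intensities as deposited by the authors are signals without normalization. Illumina values (80 columns that name no mouse) were not used.

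Agilent mean intensities were loess-normalized per array with no background correction, as log2 ratios of TG over WT, and the spots of a probe were averaged, from 41534 spots that are not controls to 41174 probes. R 4.3.3 with limma 3.58.1 was used. An intercept was fitted over the 10 arrays with lmFit and eBayes, p values were adjusted by the Benjamini-Hochberg method over all probes, and probes with an FDR of 0.1 or less were called, with no filter. SEs are moderated. Levels per mouse are means of both channels after loess and Aquantile. ABI signals were quantile-normalized on the log2 scale, in place of the vsn of the study's methods, and fitted with the genotype. The mouse numbers do not pair the ABI arrays: same-numbered WT and TG mice deviated from their group means with correlations between -0.154 and 0.24. Intervals are at 95%. The number of arrays limits the precision.

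Symbols came from RefSeq accessions (22072 probes) and from the description in the files (1369), and 17733 probes stayed unnamed. The members, lists and tests were chosen with earlier results of these data known. Named genes were the members, called list genes, up to 2 called markers per list (1 marker is not reported here), the 5 genes most like Lynx1, Tmem254a and Dclk1. Ly6c1, Ly6d, Ly6i, Chat, Slc18a3, Ubqln1, Lrp4, Chrna2, Chrna6, Gfap, Gja1, Aldoc, Slc1a3 and Cnp were named after their values were seen. The fits were tested on simulated data. Alternatives covered background correction, pixel statistic, normalization, dye, mice as a block, 1 value per mouse, averaging per gene, present probes, a limit of 0.05, robust regression, and leaving out arrays or mice.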

Additional observations from a re-analysis of the deposited data

Results flagged for a closer look

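A value was singled out where the highest or lowest of 5 mice, or of 10 arrays, lay farther from its neighbour than Dixon's critical value allows. This held for 6 of 42 groups, and chance alone gives about 1 in 20 groups.

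The TG mouse TG4 was below the other 4 TG mice for both Ly6h probes, at a normalized log2 intensity of 9.866 for A_51_P407780 and 10.375 for A_51_P407786. The WT mouse WT1 was below the other WT mice for the Chrna3 probe A_51_P203200, at 5.610, which is a signal below the control percentile. WT1 was above the other WT mice for the Chrna7 probe A_52_P648773, at 7.364, and WT5 was above them for Chrna5, at 6.567. The log2 ratio of Chrnb4 was 0.25 on array 4, apart from the other 9 arrays, for a probe that was not present on all arrays, so that the value is no difference in level.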

How the results depend on the processing

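Of the 14 probes, 3 were called with the settings of the report. The count was 2 or 3 under 16 of 19 other settings and 0 in limma's test under the other 3, which were added after seeing the data. These were 1 value per mouse with 5 WT against 5 TG (log2 ratio of Lynx1 0.34, FDR 0.146), the same after the exchange of arrays (a size of 0.34 with the sign turned, FDR 0.102), and log ratios averaged per TG mouse after the exchange (a size of 0.34 with the sign turned, FDR 0.109), with 3, 3 and 4 member probes at an unadjusted p under 0.05. Lynx1 was called in limma's test under the other 16, with log2 ratios between 0.33 and 0.47 in the direction of the labels. The calls in the pathway lists, 3 with all arrays, were 1, 0 and 1 under those 3 settings, and 5 with the WT mouse as a random block and 5 with log ratios averaged per TG mouse. As a replicate block the TG mouse of the labels gave a correlation of -0.140 and the WT mouse one of -0.248. With these blocks the log2 ratio of Lynx1 was 0.34 with an FDR of 0.00594 and 0.0032, and 3 member probes were called with each. A negative block correlation makes the SE smaller, and that of Lynx1 was 0.0482 and 0.0433, against 0.0527 without a block. The calls over all probes rose from 3055 to 4527 and 5970. These fits held no dye term and were less strict than the fit over arrays, so their lower FDRs add no evidence for Lynx1. On ABI the mouse number as a term gave Chrnb1 a difference of 0.61 with an FDR of 0.918, although these numbers do not pair the ABI arrays.

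Without 1 array, 3 member probes were called each time, the pathway calls were between 2 and 5, and the log2 ratio of Lynx1 was between 0.31 and 0.37. Without 1 mouse, the member calls were between 2 and 4, the pathway calls between 2 and 5, and the log2 ratio of Lynx1 between 0.30 and 0.37 with an FDR of up to 0.0863. Ly6e was then between 0.38 and 0.47, also with an FDR of up to 0.0863. Chrnb1 on ABI was between 0.16 and 0.86. The number of all called probes, 3055, was 1335 with median centring, 1205 at the limit of 0.05, 1774 with log ratios averaged per WT mouse, 5970 with the WT mouse as a block, 5074 with the TG mouse as a block after the exchange, and 98, 24 and 11 under the 3 settings with 0 member calls. It was 282 without WT4 and 366 without WT3. Present members numbered between 11 and 13 under other rules. The scan date was not run as a term, since all arrays share 1 day. The cause of these changes was not tested. The signal over background limits what can be seen of Chrna3 and Chrnb4.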
